A study of Homo sapiens with 4 samples.

Results

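Cullins, the adaptor SKP1 and the F-box and KLHL proteins are parts of the cullin-RING ubiquitin ligases, and 109 of their genes were followed through sonodynamic therapy (SDT) of liver cancer cells. The genes were taken by symbol from the 19951 protein-coding genes of GENCODE release 29. A member is a gene whose symbol begins with FBXO, FBXL, FBXW, KLHL or CUL followed by a digit, or is SKP1 or SKP2. A member was counted as listed when its Ensembl identifier stood under any Gene Ontology (GO) term in the authors' deposited table of differentially expressed mRNAs.

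The data come from 4 libraries of total RNA, sequenced after ribosomal RNA had been removed. Group A was HepG2 cells before treatment and group C was Huh7 cells before treatment, both established human lines labelled hepatocellular carcinoma, without any agent named in the labels. Group B (HepG2) and group D (Huh7) were taken after SDT, in which low-frequency ultrasound was applied to cells given targeted nanobubbles (HMME-LND@C3F8-NBs) with a C3F8 gas core, the sensitizer HMME and lonidamine (LND), a drug acting on tumor energy metabolism. The time from treatment to harvest is not given in the sources used here. With 1 library in each group, no difference has a replicate check, and the parts played by ultrasound, HMME, LND and the nanobubbles cannot be told apart. The HepG2 comparison (B vs. A) and the Huh7 comparison (D vs. C) share no library. The tables give neither expression values nor a direction of change, so a listed gene is one whose level the authors called different, higher or lower. The tables hold no depth per library, and the identity of the cells could not be checked against marker levels. A gene that was not listed may not have been called, may not have been tested, or may carry no GO annotation.

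A ubiquitin ligase attaches ubiquitin to a chosen protein, which often sends that protein to the proteasome. In a cullin-RING ligase the cullin is the scaffold. At one end it holds a RING protein, which recruits the ubiquitin-carrying enzyme, and at the other end an adaptor and a substrate receptor. CUL1 uses SKP1 and the F-box proteins, which are named by their substrate-binding repeats as FBXW (WD40), FBXL (leucine-rich) or FBXO (other). CUL3 uses BTB-domain proteins that serve as adaptor and receptor at once, among them the KLHL family with its kelch repeats. These ligases are best known for timing the cell cycle and for controlling stress, circadian and developmental regulators.

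After SDT, HepG2 cells listed 27 of the 109 members (24.8%) and Huh7 cells listed 24 (22.0%). The corresponding shares of all protein-coding genes were 23.9% and 21.9%, so the members as a whole were listed about as often as any gene. Both cell lines listed 14 members (12.8%, where the background share was 11.4%), and at least 1 of the cell lines listed 37 (33.9%, with a background of 34.3%). A further 72 were listed in neither. The 14 shared members were 51.9% of the HepG2 members and 58.3% of the Huh7 members, where the shares over all protein-coding genes were 47.7% and 52.2%. No test was made of these counts, which describe the lists of these libraries.

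The listed share is given here by family, where the shares of all protein-coding genes were 23.9% in HepG2 and 21.9% in Huh7 cells. Of the 37 KLHL genes, HepG2 cells listed 12 (32.4%) and Huh7 cells 9 (24.3%). The FBXO family followed with 9 and 10 of 36 genes (25.0% and 27.8%), and the FBXW family had 2 of 9 in each. The FBXL family was sparsely listed, with 2 of 17 genes for HepG2 (11.8%) and 1 for Huh7 (5.88%). SKP2 also carries leucine-rich repeats, and with it the shares are 3 of 18 (16.7%) and 2 of 18 (11.1%). Of the 8 cullins, 1 was listed in each cell line. The overlap also varied in these lists, where over all protein-coding genes it was 47.7% of the HepG2 and 52.2% of the Huh7 genes. The 7 FBXO genes listed in both cell lines were 77.8% of the HepG2 and 70.0% of the Huh7 FBXO genes. The 4 shared KLHL genes were 33.3% and 44.4% of theirs. These differences between families rest on few genes and were not tested.

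**Figure D1:**
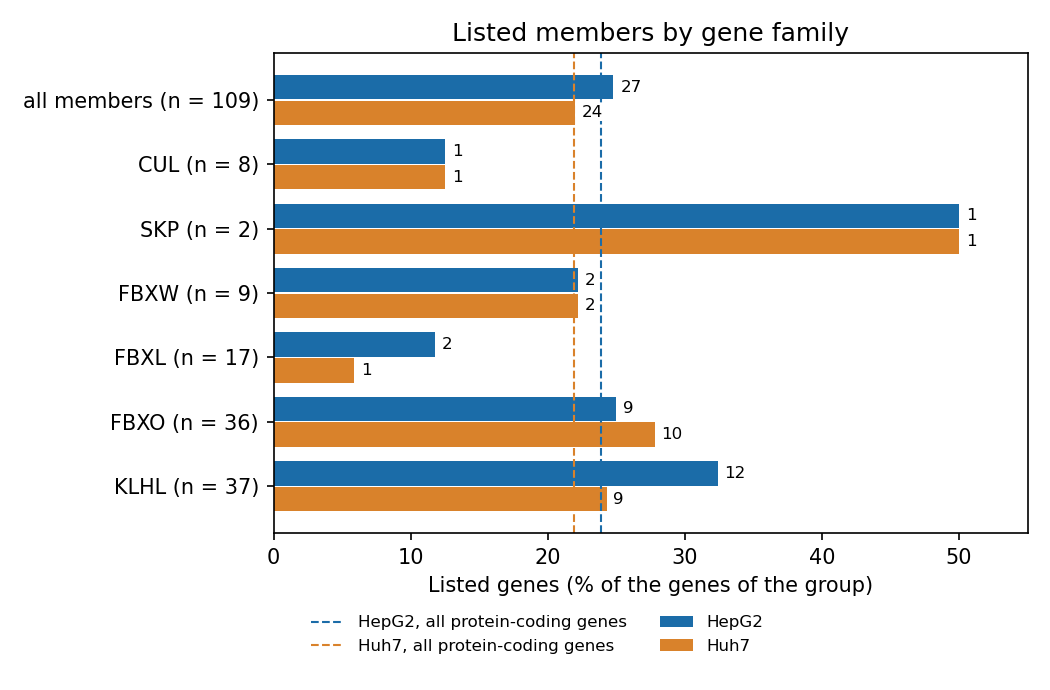
Bars give the share of each gene family (vertical axis, with its number of genes) that was listed after SDT, in percent, for HepG2 and Huh7 cells, with the number of listed genes at the end of each bar and dashed lines at the share of all protein-coding genes. The bars for all members end at 24.8% and 22.0%, next to the dashed lines at 23.9% and 21.9%, while FBXL stays below them in both cell lines.

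Among the scaffolds, CUL7 (ENSG00000044090, chromosome 6) was listed in both cell lines. CUL7 assembles a ligase with the F-box protein FBXW8, and its loss causes the growth disorder 3-M syndrome. CUL1, CUL2, CUL3, CUL4A, CUL4B, CUL5 and CUL9 were listed in neither cell line, and neither was FBXW8. Thus the scaffolds that serve most F-box and KLHL receptors, CUL1 and CUL3, were outside both lists, as was the adaptor SKP1. CUL7 stood under 166 GO terms in each table, including mitotic cytokinesis and the Cul7-RING ubiquitin ligase complex, for which it was the 1 listed gene of 5 background genes.

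SKP2 (ENSG00000145604, chromosome 5), the F-box protein that marks the cell cycle inhibitor p27 for destruction, was also listed in both. It stood under 138 GO terms and 8 KEGG pathways in each cell line, more pathways than any other member. They were Cell cycle, FoxO signaling pathway, Pathways in cancer, Small cell lung cancer, Viral carcinogenesis, Herpes simplex infection, Epstein-Barr virus infection and Ubiquitin mediated proteolysis. The numbers of terms and pathways come from the annotation of a gene and do not measure a response to SDT. For every shared member they were the same in both tables. CDKN1B, the gene of p27, was listed in neither cell line. CDKN1A and CDKN1C, which encode the related inhibitors p21 and p57, were listed in both, and they also stand among the known substrates counted below.

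Several of the other shared members act in cell division. FBXO5 (ENSG00000112029, chromosome 6) and FBXO43 (ENSG00000156509, chromosome 8) encode EMI1 and EMI2, inhibitors of the anaphase-promoting complex in the somatic cycle and in the egg, respectively. Both were listed in both cell lines, and both stood in the KEGG pathway Oocyte meiosis. FBXO5 had 304 GO terms in each table, the most of any member. KLHL13 (ENSG00000003096, chromosome X) and KLHL21 (ENSG00000162413, chromosome 1), CUL3 receptors that act on Aurora B kinase during chromosome segregation and cytokinesis, were listed in both as well, whereas KLHL9, the partner of KLHL13, was listed in neither. Under the GO term cell cycle stood 8 of the 27 HepG2 members and 8 of the 24 Huh7 members. How many unlisted members carry the term is not known from the lists, so these counts do not set the listed members apart. The term as a whole was listed near or below the share of the GO background, with 424 of its 1881 genes in HepG2 cells (22.5%, background 21.6%) and 355 in Huh7 cells (18.9%, background 19.7%). The HepG2 genes were CUL7, SKP2, FBXO5, FBXO43, KLHL13, KLHL21, FBXL12 and KLHL42. In Huh7 cells FBXL7 and FBXO4 took the place of FBXL12 and KLHL42.

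The remaining 8 shared members had more varied roles. FBXO32 (ENSG00000156804, chromosome 8) encodes atrogin-1, which drives protein loss in wasting muscle. Its narrowest GO terms concerned the response of muscle to inactivity and denervation, and its KEGG pathway in both cell lines was FoxO signaling. FBXO10 (ENSG00000147912, chromosome 9) targets the survival protein BCL2, and FBXO42 (ENSG00000037637, chromosome 1) has been tied to p53 turnover. KLHL24 (ENSG00000114796, chromosome 3) controls keratin turnover in skin and stood under intermediate filament organization and desmosome. FBXW10 (ENSG00000171931, chromosome 17), FBXO24 (ENSG00000106336, chromosome 7), FBXO34 (ENSG00000178974, chromosome 14) and KLHL23 (ENSG00000213160, chromosome 2) completed the shared members. FBXO34, FBXO42 and KLHL23 stood under 3 terms each, protein binding, binding and molecular function, so the tables say little about them.

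**Figure D2:**
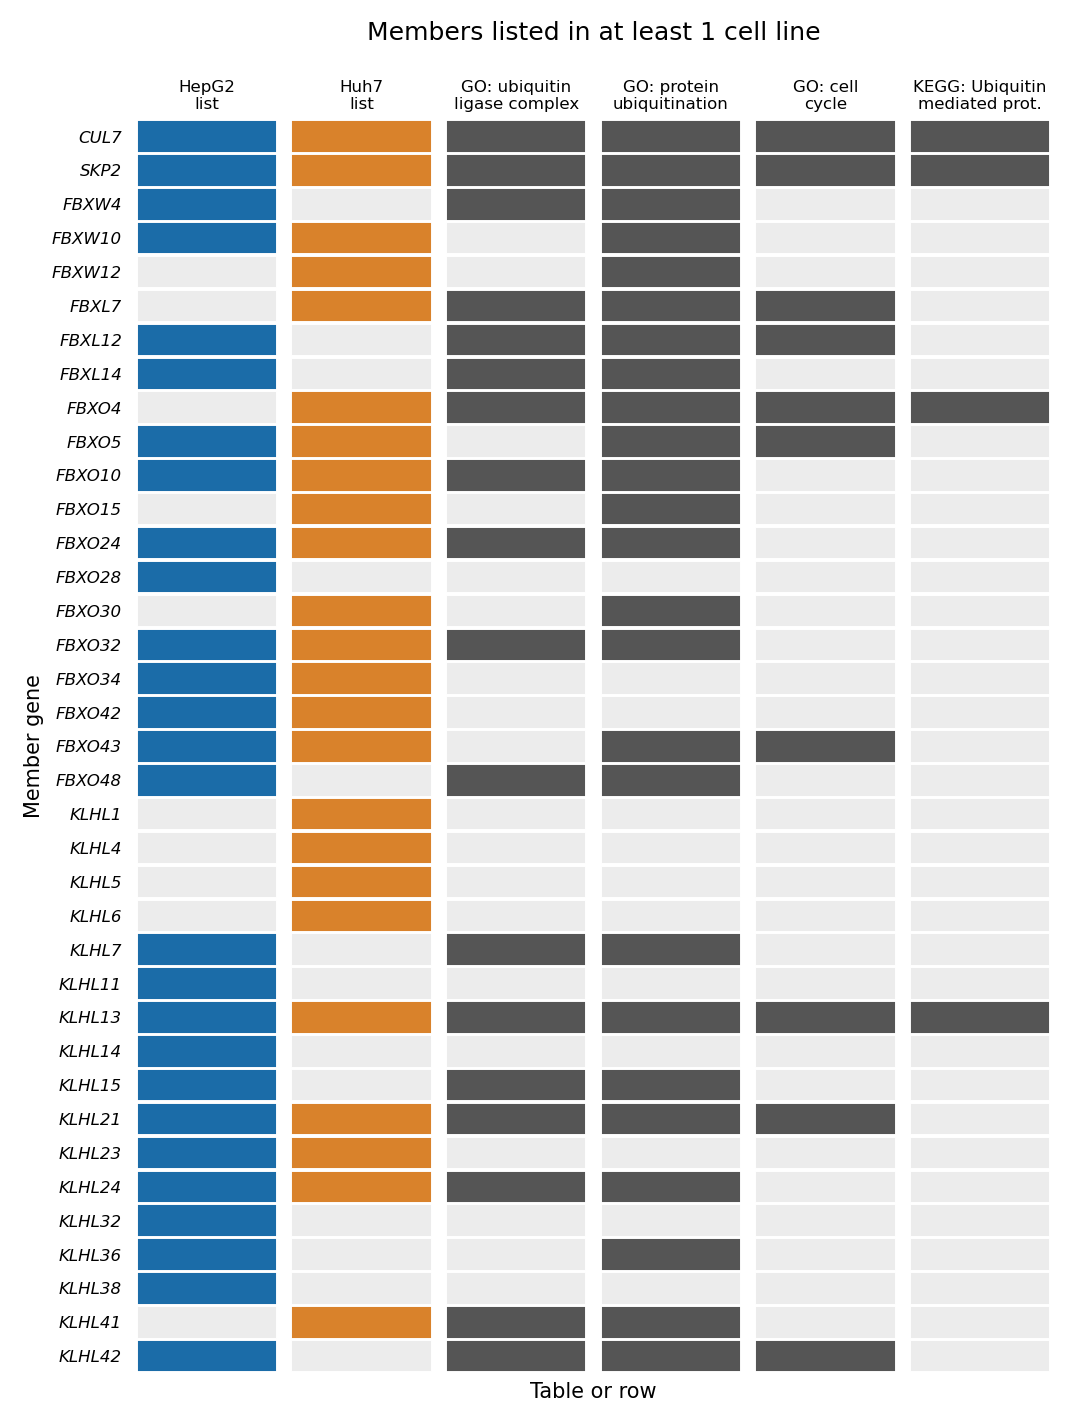
Each row is 1 of the 37 members listed in at least 1 cell line, and filled tiles show whether it was in the HepG2 list, in the Huh7 list, under 3 GO terms (in either table), or in the KEGG row Ubiquitin mediated proteolysis (in either table). The 14 genes with both the blue and the orange tile filled include CUL7 and SKP2, and 4 genes (CUL7, SKP2, FBXO4 and KLHL13) have the KEGG tile filled.

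The promoters of 6 shared members are shown, because these genes were called in both cell lines and cover a cell cycle pair (SKP2 and FBXO5), 3 KLHL receptors and the gene with a cyclic AMP response element (FBXO34). Each run holds the 250 bases before the gene start, 5′ to 3′ on the strand of the gene, from RefSeq. Capitals mark matches on either strand to any of the 10 motifs searched, spelled out after the sequences.
SKP2 promoter, GRCh38.p14 chr5:36151861-36152110, plus strand: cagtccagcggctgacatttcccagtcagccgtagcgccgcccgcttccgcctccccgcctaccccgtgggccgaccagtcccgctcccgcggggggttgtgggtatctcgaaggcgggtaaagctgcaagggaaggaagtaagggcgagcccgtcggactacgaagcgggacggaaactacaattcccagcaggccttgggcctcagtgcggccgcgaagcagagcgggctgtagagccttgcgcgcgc
FBXO5 promoter, GRCh38.p14 chr6:152983580-152983829, minus strand: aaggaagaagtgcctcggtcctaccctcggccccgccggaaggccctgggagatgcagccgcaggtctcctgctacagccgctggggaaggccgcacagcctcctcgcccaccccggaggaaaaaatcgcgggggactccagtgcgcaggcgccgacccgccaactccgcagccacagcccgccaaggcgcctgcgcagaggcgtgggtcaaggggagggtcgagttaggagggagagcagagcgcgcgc
FBXO34 promoter, GRCh38.p14 chr14:55271171-55271420, plus strand: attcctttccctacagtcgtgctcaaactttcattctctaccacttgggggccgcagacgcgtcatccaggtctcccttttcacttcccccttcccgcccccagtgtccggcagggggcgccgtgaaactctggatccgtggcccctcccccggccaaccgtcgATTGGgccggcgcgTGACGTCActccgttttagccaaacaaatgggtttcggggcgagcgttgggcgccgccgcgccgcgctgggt
KLHL13 promoter, GRCh38.p14 chrX:118116811-118117060, minus strand: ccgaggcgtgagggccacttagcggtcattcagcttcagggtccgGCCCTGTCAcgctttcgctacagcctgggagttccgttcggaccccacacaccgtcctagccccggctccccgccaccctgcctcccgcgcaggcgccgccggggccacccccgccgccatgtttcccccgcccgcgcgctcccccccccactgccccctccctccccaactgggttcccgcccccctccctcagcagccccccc
KLHL21 promoter, GRCh38.p14 chr1:6602870-6603119, minus strand: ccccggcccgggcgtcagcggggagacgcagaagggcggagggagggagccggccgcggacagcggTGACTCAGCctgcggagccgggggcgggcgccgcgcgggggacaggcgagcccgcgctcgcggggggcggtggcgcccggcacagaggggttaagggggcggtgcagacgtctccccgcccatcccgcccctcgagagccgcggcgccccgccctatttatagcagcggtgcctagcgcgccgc
KLHL24 promoter, GRCh38.p14 chr3:183635373-183635622, plus strand: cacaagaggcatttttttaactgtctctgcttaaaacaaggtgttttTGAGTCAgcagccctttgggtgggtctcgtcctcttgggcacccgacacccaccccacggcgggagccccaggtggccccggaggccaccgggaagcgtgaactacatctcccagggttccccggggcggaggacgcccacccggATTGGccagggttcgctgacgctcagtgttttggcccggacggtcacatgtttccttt

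The motifs were E2F (TTTCCCGC and TTTGGCGC), CHR (TTTGAA), the CCAAT box (CCAAT), the antioxidant response element (TGACNNNGC), AP-1 (TGANTCA), CRE (TGACGTCA), the E-box (CACGTG), FOXO (GTAAACA) and the heat shock element (GAANNTTC). Of the 109 members, 90 had a promoter in the table used, among them 10 of the 14 shared ones. AP-1 matches were found in 2 of these 10 promoters, KLHL21 and KLHL24, against 4.44% of the promoters of all members and 5.05% of 14896 promoters of protein-coding genes. In KLHL21 the AP-1 match, 184 bases before the start, lies within the match to the antioxidant response element. That element was matched in KLHL13 and KLHL21 among the 10, in 17.8% of all members and in 11.5% of all promoters. The CRE was matched in FBXO34, 72 bases before the start, and in 2.30% of all promoters. The CCAAT box was matched in FBXO24, FBXO34 and KLHL24, and in 34.5% of all promoters. The heat shock element was matched in FBXW10 (4.78% of all promoters). None of the 10 windows holds the E-box (7.89% of all promoters), CHR (10.7%) or FOXO letters (2.27%) or either E2F motif (1.87% and 0.745%). The SKP2 and FBXO5 windows hold no match to any motif searched. The median GC content was 69.0% in the windows of the shared members, 64.0% for members listed in 1 cell line, 65.6% for those in neither and 62.4% for all promoters. The ranges overlapped, and the FBXW10 window was 34.0% GC. A match is a run of letters in this window and was not tied to binding.

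HepG2 cells listed 13 members that Huh7 cells did not, out of 27 listed members. Over all protein-coding genes these numbers were 2492 out of 4768. The F-box genes were FBXW4, FBXL12, FBXL14, FBXO28 and FBXO48. FBXL14 is known for the turnover of the transcription factor SNAI1. The KLHL genes were KLHL7, KLHL11, KLHL14, KLHL15, KLHL32, KLHL36, KLHL38 and KLHL42. KLHL7 is mutated in a form of inherited retinal degeneration. KLHL15, which controls the DNA repair factor CtIP, stood under negative regulation of double-strand break repair, and KLHL42, which acts on the microtubule-severing protein katanin, stood under regulation of microtubule-based process. Members with the fewest terms were KLHL32 and KLHL38, with 3 GO terms each.

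Huh7 cells listed 10 members that HepG2 cells did not, out of 24 listed members. Over all protein-coding genes these numbers were 2084 out of 4360. The F-box genes were FBXW12, FBXL7, FBXO4, FBXO15 and FBXO30. FBXL7 acts on Aurora A kinase and FBXO4 on cyclin D1, whose gene CCND1 was listed in both cell lines. FBXO4 had 192 GO terms and stood in the KEGG row Ubiquitin mediated proteolysis. The KLHL genes were KLHL1, KLHL4, KLHL5, KLHL6 and KLHL41. Narrow GO terms of KLHL1, KLHL6 and KLHL41 named other tissues, while KLHL4 and KLHL5 stood under actin binding. Terms of other tissues were not limited to these genes, since KLHL14 and KLHL24 stood under neuronal cell body. KLHL1 stood under cerebellar terms, KLHL6 under germinal center formation and B cell receptor signaling pathway, and KLHL41, a sarcomere protein, under regulation of myoblast proliferation. Whether a gene was listed in a single cell line does not show that the cell lines differed in it, and this was not tested.

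Among the 72 members in neither list were several of the best known receptors. They included FBXW7, which controls cyclin E, MYC and JUN, and FBXW11, a beta-TrCP protein of the NF-kB and Wnt pathways. They also included FBXL5, the iron-sensing receptor for IREB2. KLHL3, which controls the WNK kinases of salt transport, and FBXO31, another receptor for cyclin D1, were not listed either. Close relatives were not always listed together. FBXO10 was in both lists and its relative FBXO11 in neither, and KLHL41 was listed in Huh7 cells while its muscle relative KLHL40 was not listed. FBXO10 and KLHL41 share much sequence with other genes, as described below, so their reads could be assigned with less certainty. The unique share was 54.2% for FBXO10 and 66.6% for KLHL41, against 100% for FBXO11 and KLHL40. Whether the relatives differed in their response was not tested. Some substrate genes of unlisted receptors were listed, with JUN in both cell lines, MYC in HepG2 cells and WNK4, a substrate of the KLHL3 ligase, in both. Of the 28 known substrates counted below, 15 were listed in neither cell line.

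The GO terms of the ligases placed the members among their partners. Protein ubiquitination held 19 of the 27 HepG2 members and 17 of the 24 Huh7 members. The lists do not show how many unlisted members carry this term. Of its 814 background genes, HepG2 cells listed 181 (22.2%) and Huh7 cells 137 (16.8%), where the GO background shares were 21.6% and 19.7%. Of the 286 background genes of the term ubiquitin ligase complex, HepG2 cells listed 52, with 15 members among them, and Huh7 cells listed 44, with 11 members. These are 18.2% and 15.4% of the term, where 21.6% and 19.7% of the whole GO background of 22148 genes were listed. Cullin-RING ubiquitin ligase complex held 30 and 24 of 158 genes (19.0% and 15.2%). SCF ubiquitin ligase complex, the CUL1 type, held 12 and 7 of 58 genes (20.7% and 12.1%). Its listed members were SKP2 and FBXO32 in both cell lines, FBXW4, FBXL12, FBXL14 and FBXO48 in HepG2 cells, and FBXL7 and FBXO4 in Huh7 cells. Cul3-RING ubiquitin ligase complex held 7 and 6 of 37 genes (18.9% and 16.2%). KLHL13, KLHL21 and KLHL24 were among them in both cell lines, joined by KLHL7, KLHL15 and KLHL42 in HepG2 cells and by KLHL41 in Huh7 cells. Cul4-RING ubiquitin ligase complex held 2 and 3 of 35 genes (5.71% and 8.57%), and no member was among them.

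**Figure D3:**
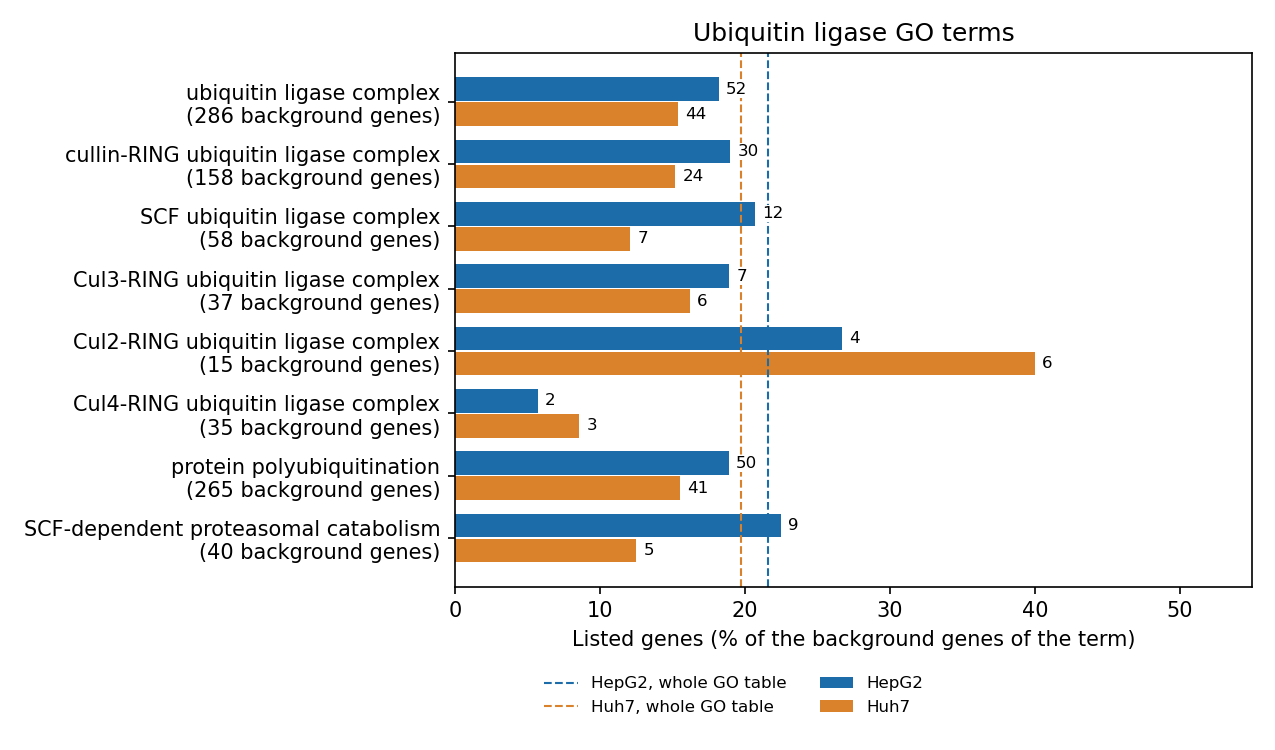
Bars give the listed genes as a percentage of the background genes of 8 GO terms, with the number of listed genes at the bar ends, and dashed lines at the share of the whole GO background that was listed (21.6% in HepG2 cells, 19.7% in Huh7 cells). The Cul4-RING bars are the shortest (5.71% and 8.57%), and the small Cul2-RING term of 15 genes, which held no member, has 4 and 6 listed genes.

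Of the 137 genes of the KEGG row Ubiquitin mediated proteolysis, HepG2 cells listed 25 (18.2%) and Huh7 cells 20 (14.6%), where the shares of the GO background were 21.6% and 19.7%. CUL7, SKP2 and KLHL13 were the members among the HepG2 genes, and these 3 together with FBXO4 were the members among the Huh7 genes. In all, 10 genes stood in the row in both cell lines, 40% of the HepG2 genes and 50% of the Huh7 genes, where the overlap over all protein-coding genes was 47.7% and 52.2%. Beside the 3 members they included BRCA1, FANCL, SOCS1, SYVN1, UBE2E3 and UBE2N. The first 4 of these encode ligases or a ligase receptor, and the UBE2 genes encode conjugating enzymes. With 6 members in the HepG2 KEGG table and 7 in the Huh7 table, most listed members had no pathway. The same held for listed genes in general. The KEGG tables held 1693 HepG2 and 1636 Huh7 genes, beside 4783 and 4369 genes in the GO lists.

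The machinery that switches cullins on and off was counted from lists of textbook partners. The partner, receptor and substrate lists were chosen with earlier results of these data known. The background for these lists is the share of all protein-coding genes listed, 23.9% in HepG2 and 21.9% in Huh7 cells. NEDD8, a ubiquitin-like protein attached to cullins, activates them, the COP9 signalosome removes it, and CAND1 exchanges receptors. Of 13 neddylation and exchange genes, HepG2 cells listed 5 (38.5%) and Huh7 cells 1 (7.69%). The HepG2 genes were NEDD8, its conjugating enzyme UBE2F, the ligation factor DCUN1D3, the protease SENP8 and CAND2, and the Huh7 gene was DCUN1D4. COPS7A was the listed gene among 10 COP9 genes, in HepG2 cells. Of 7 core partners, ELOC, the elongin adaptor of CUL2 and CUL5, was listed in HepG2 cells. No core partner was listed in Huh7 cells. The difference between the cell lines in the neddylation genes was not tested.

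Receptors of the other cullins were counted in the same way, against the same background shares of 23.9% and 21.9%. Of 45 CUL2 and CUL5 receptors, HepG2 cells listed 12 (26.7%) and Huh7 cells 13 (28.9%), with FEM1C, SOCS1, SOCS3, ASB2, ASB4, ASB9 and SPSB3 in both. SOCS1 and SOCS3 are feedback inhibitors of cytokine signaling. Of 23 CUL4 receptors, DCAF17 was listed in HepG2 cells, and DTL, a receptor active in S phase, and DET1 in Huh7 cells. Among 27 other BTB adaptors of CUL3, 4 were listed in each cell line and KCTD14 in both. RHOBTB1, KCTD3 and KCTD16 were listed in HepG2 cells alone, and KCTD6, KCTD8 and KCTD17 in Huh7 cells alone. F-box genes whose symbols the rule does not cover numbered 8, and cyclin F (CCNF) and ECT2L were listed in both cell lines. Of 13 BTB-kelch genes with other symbols, ENC1 was listed in both and KBTBD6 in HepG2 cells. KEAP1, the receptor that holds down the antioxidant factor NRF2, was in neither list.

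Of 16 genes of the anaphase-promoting complex and its activators, which EMI1 and EMI2 inhibit, ANAPC1, ANAPC7 and CDC20 were listed in HepG2 cells and ANAPC4 in Huh7 cells. The background shares for this list and for the substrates were again 23.9% and 21.9%. Both lists were chosen with earlier results of these data known, and their shares were not tested. Of 28 known substrates, 9 were listed in each cell line (32.1%). CCND1, JUN, CDKN1A, CDKN1C and WNK4 were in both. MYC, MCL1, NFKBIA and CRY1 were in HepG2 cells alone, and CDC25A, HIF1A, PDCD4 and RRM2 in Huh7 cells alone. A change in the mRNA of a substrate says nothing of its turnover as a protein.

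**Figure D4:**
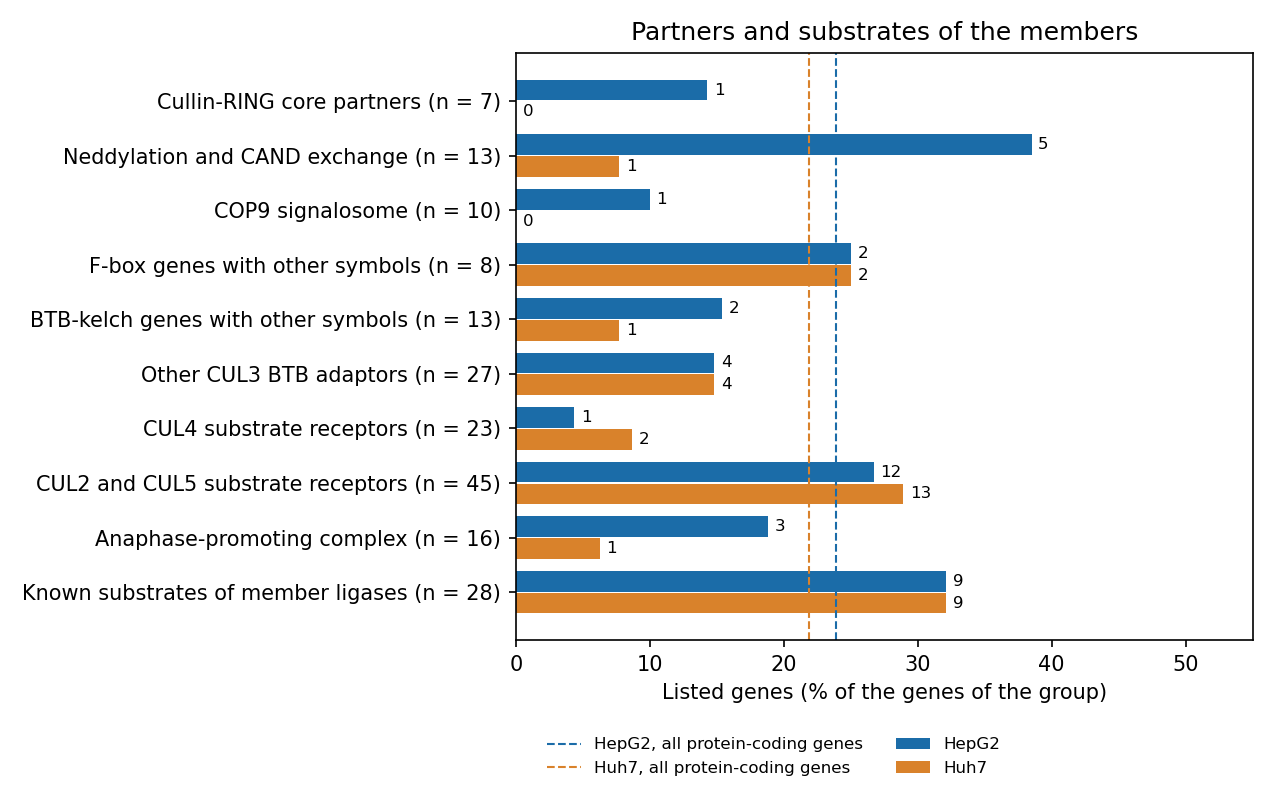
Bars give the share of each partner, receptor or substrate list (vertical axis, with its number of genes) that was listed after SDT, in percent, with the number of listed genes at the bar ends and dashed lines at the share of all protein-coding genes (23.9% and 21.9%). The neddylation genes show the widest gap between the cell lines, 5 of 13 against 1 of 13, and the substrates lie above both lines with 9 of 28 each. The lists were chosen with earlier results of these data known, and the shares were not tested.

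Transcript length was compared because longer genes gather more reads. The longest transcript had a median of 4326 bases among the 14 shared members, 4312 among the 13 listed in HepG2 cells alone, 3770 among the 10 listed in Huh7 cells alone and 4010 among the 72 in neither list, and the ranges overlapped. Members were longer than other genes (4077 bases against a median of 3157 for all protein-coding genes). Among protein-coding genes of the members' length, 2264 to 7052 bases, HepG2 cells listed 25.2% and Huh7 cells 22.7%, and of the members in this range 26.4% and 23.0%.

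**Figure D5:**
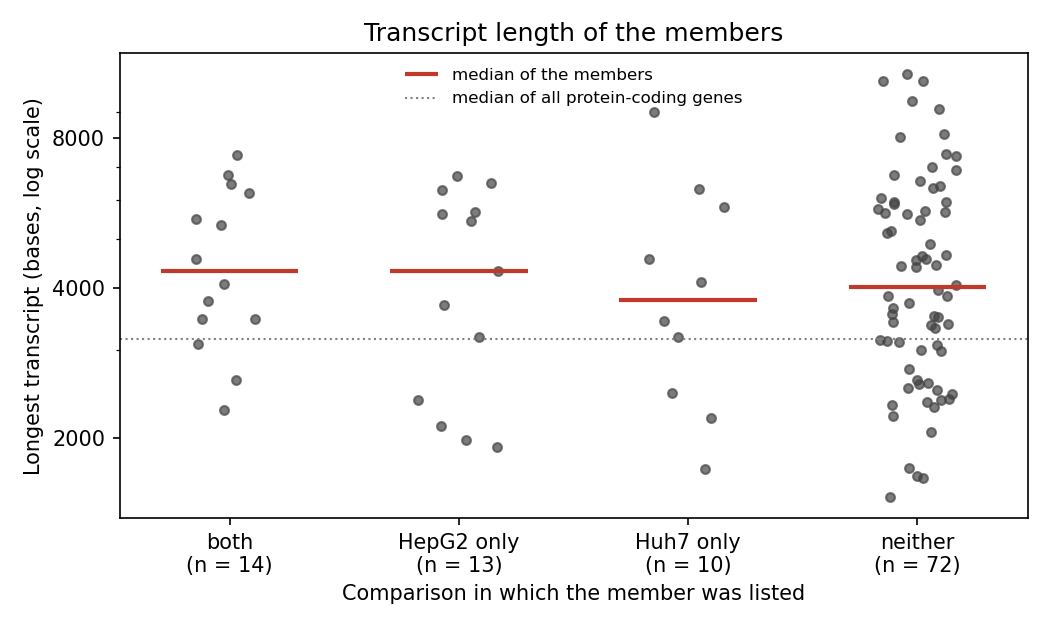
Points give the longest transcript of each of the 109 members in bases, on a log scale, by the comparison in which the member was listed, with the median of each group as a red line and the median of all protein-coding genes (3157 bases) as a dotted line. The 4 groups overlap, with medians from 3770 to 4326 bases.

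Some listed members share sequence with other genes, so their reads could not be assigned with the same certainty. Of the 109 members, 89 had at least 99% of their 75-base stretches found in no transcript of another gene, and 7 had under 90%. Among the shared members, FBXW10 had 66.4%, with the rest shared mainly with CDRT1, a related gene elsewhere on chromosome 17 that was itself listed in both cell lines. FBXO10 had 54.2%, through an overlapping gene model that was not listed. KLHL41, listed in Huh7 cells, had 66.6% for the same reason. SKP2, CUL7, FBXO5, KLHL13, KLHL21 and KLHL24 were each at or above 99%.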

How the data were processed

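Total RNA was measured in 4 libraries, HepG2 and Huh7 cells before and after SDT, grouped by the sample labels. The submitters' processing notes name Bowtie2 2.2.8, HISAT2, StringTie 1.3.1 and Cuffdiff 2.1.1 without a role. The authors called mRNAs at an adjusted p-value under 0.05 (Cuffdiff in the methods, edgeR in the results), and tested GO terms with GOseq and KEGG pathways with KOBAS. Their genome build is not given in the sources used here. The deposited tables hold numbers of genes, not of reads, with identifiers and p-values, and the p-values were not used.

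Pooling the identifiers of all GO terms of a table gave its listed genes, 4783 for HepG2 and 4369 for Huh7 cells, of which 4768 and 4360 were protein-coding in GENCODE release 29. The background of the members is all protein-coding genes of that release, tested or not. Counting was done in Python 3.11.15, and the reading of tables was checked on simulated data. Promoter windows came from RefSeq (GRCh38.p14), matched by symbol, and serve only the sequences printed. Sequence sharing was counted on the sense strand of GENCODE transcripts, since the kit marks strand. Chromosomes are those of GENCODE. Every cullin, SKP1, SKP2 and listed member is named, with some well-known unlisted ones. Some items are not reported here. The members, partner lists and motifs were chosen with earlier results of these data known. The alternatives were other tables, ontologies, symbol tables, members and backgrounds. No test was made, because each group holds 1 library.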

Additional observations from a re-analysis of the deposited data

How the results depend on the processing

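All 27 alternatives left the counts and shares within 1.5 times the values given. This limit is wide, and it does not record whether the members lay above or below the share of all protein-coding genes. Reading a single ontology gave 20 to 24 listed members in HepG2 cells, 20 to 24 in Huh7 cells and 11 to 14 in both. With biological process terms alone the members were below the share of all protein-coding genes in HepG2 cells (18.3% against 21.4%) and stood beside it in Huh7 cells (19.3% against 19.7%). With cellular component terms alone they were below it in both (19.3% against 23.0%, and 18.3% against 21.1%), and with molecular function terms alone the shares were 22.0% against 21.5%, and 22.0% against 19.7%. Adding the KEGG table left 27, 24 and 14 and could not change them, since every member in it was already in the GO list. Symbols from another table of gene names added CDRT1 and LRRC29 as members and gave 29, 25 and 15 of 111. Adding F-box and BTB-kelch genes with other symbols gave 31, 27 and 17 of 130. Leaving out the 7 members under 90% unique stretches, a setting chosen after the data were seen, gave 25, 21 and 12 of 102. With the GO background of 22148 genes, 21.6% and 19.7% of genes were listed in place of 23.9% and 21.9%. In the KEGG row Ubiquitin mediated proteolysis, 24 of the 25 HepG2 genes and all 20 Huh7 genes were also in the GO list. No replicate could be left out, since each group holds 1 library. No paired analysis was possible because a single library stands for each group and the tables hold no values per sample. The tables hold no depth per library, so the size of change that could be called was not assessed.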

Other observations

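The proteasome, which takes up the products of these ligases, was rarely listed. Of 40 genes whose symbols begin with PSMA, PSMB, PSMC or PSMD followed by a digit, HepG2 cells listed 2 (5.00%) and Huh7 cells 1 (2.50%), where the background shares were 23.9% and 21.9%. The HepG2 genes were PSMB8 and PSMB9, subunits of the immunoproteasome, and the Huh7 gene was PSMA8, a subunit known from the testis. No subunit was listed in both cell lines. The members, in contrast, were listed at 24.8% and 22.0%. The difference was not tested.

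The KEGG row Ubiquitin mediated proteolysis held different enzymes upstream of the ligases in each cell line. UBE2D1, UBE2F, UBE2L5 and UBE2W, all conjugating enzymes, stood in the row in HepG2 cells alone. In Huh7 cells alone stood the conjugating enzymes UBE2B, UBE2O and UBE2Q2 and the activating enzyme UBA7, which serves the ubiquitin-like protein ISG15. Among the ligases other than the cullin type, ITCH, MDM2, MAP3K1 and AIRE stood in the row in HepG2 cells alone, and NEDD4L, TRIM32 and PML in Huh7 cells alone. Whether the cell lines differed in these genes was not tested.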
